A study of Mus musculus with 42 samples.

Results

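Microglia of wild-type (WT) mice that were sorted as Ki67-, the label for cells outside division, were compared between 12 and 4 months of age. Microglia are the resident macrophages of the brain. They keep a surveying program that is marked by receptors such as P2RY12 and CX3CR1, they clear debris through their lysosomes, and they can take up inflammatory, interferon-driven or disease-associated programs. The cells came from whole brains of male WT mice on a C57BL/6 background, were fixed, stained for the proliferation antigen Ki67, and sorted as CD11b+/CD45+ cells, 400 per library. The 12-month group held 3 libraries of Ki67- cells and the 4-month group 5. Neither group carried the APP/PS1 transgenes, and the labels name no drug. The whole series has 42 libraries in 12 groups, 1 for each combination of genotype (WT or APP/PS1), age (4, 6 or 12 months) and sort (Ki67+ or Ki67-). APP/PS1 mice carry mutant human amyloid precursor protein and presenilin 1 and deposit amyloid with age.

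Genes entered the comparison when their mean level was at least 7 in 1 of the 2 groups, which kept 12112 of the 19151 genes of the table. Levels are on the authors' log2 scale after they removed 10 surrogate variables, which are patterns of variation estimated beyond the group differences. In the 8 libraries 5% of values lay under 6.27 and 5% above 10.24, and the median was 7.34, so a level near 6.3 stands at the bottom of this scale. Read depth is unknown, and the number of libraries limits the precision.

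The cells carried a microglial transcriptome at both ages, beside abundant leukocyte transcripts such as S100a8 that are given below. Among defining microglial markers, Csf1r had a mean level of 15.22 in the younger and 14.88 in the older group. The means were 14.53 and 13.86 for Cx3cr1, 14.36 and 13.87 for Tmem119, 14.22 and 13.15 for P2ry12, and 11.47 and 11.64 for Aif1, which encodes IBA1. These 5 genes stood at or above percentile 98.7 of the genes of the table at both ages. Mki67 itself, the gene of the sorted antigen, measured 7.63 to 8.37 at 4 months and 8.80 to 8.84 at 12 months. Its difference of 0.77 ± 0.40 (SE) did not pass the test (adjusted p = 0.193, limma). The Mki67 level did not follow the sort in WT mice. The mean was 8.82 in the 12-month libraries labelled Ki67- and 7.73 in those labelled Ki67+, whereas the 4-month means were 8.05 and 8.03. The 12-month means under APP/PS1 were 7.77 (Ki67-) and 8.59 (Ki67+). The sort was on the protein, so Ki67- is used here as the label of the libraries.

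The libraries of each age differed in how far apart they stood. The 3 libraries at 12 months were nearly identical after the authors' removal of surrogate variables, with a median absolute difference between pairs of 0.026 to 0.059. Among the 5 libraries at 4 months the pairs differed by 0.185 to 0.349, except replicates 1 and 2, which differed by 0.023. A library at 12 months and a library at 4 months differed by 0.397 to 0.493. The median standard deviation over genes was 0.033 at 12 months, 0.212 at 4 months and between 0.184 and 0.401 in the other 10 groups. Of the 2 degrees of freedom among the 12-month libraries, 0.0187 was left in the table. The directions removed from the table thus took up nearly all the differences among these 3 libraries. The sources used here do not say why the removal fell on these libraries. The counts below show how the calls depend on the number of samples these libraries count as. They cannot show what the removal did to the mean of these libraries. All p-values are therefore given in a fit that uses the 3 libraries and, where it matters, in a fit that counts their mean as 1 sample. The p-values set a difference against a spread between libraries that is pooled over all 12 groups. In the fit of 3 libraries, the 12-month group supplied 0.0187 and the 4-month group 1.93 of its 20 degrees of freedom. The spread is one of libraries, because the labels do not say that each library came from its own animal.

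**Figure D1:**
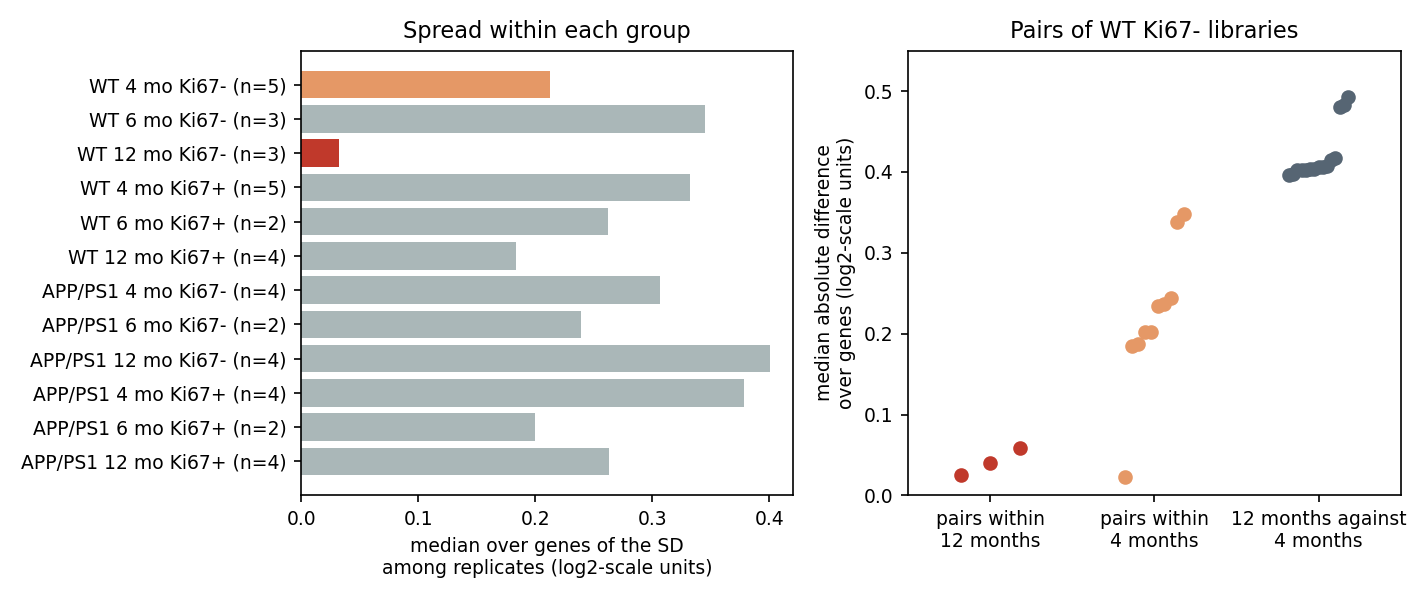
Left, the bars give the median over genes of the standard deviation among the replicates of each of the 12 groups, in log2-scale units. Right, each point is a pair of WT Ki67- libraries, and its height is the median absolute difference over genes. The 3 pairs within 12 months lie between 0.026 and 0.059, below every pair within 4 months but 1.

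At 12 months, 891 genes were higher (7.36% of those tested) and 1015 were lower (8.38%) than at 4 months at an FDR of 0.05 (limma with Benjamini-Hochberg adjustment, 3 against 5 libraries). Counting the 12-month libraries as 1 sample left 12 genes higher (0.0991%) and 26 lower (0.215%), and all 38 were among the genes called with 3 libraries. That count keeps the differences and widens every standard error by nearly the same factor, so the 38 genes are those with the lowest p-values. The median difference of the genes called higher was 1.06 and that of the genes called lower was -1.16, against a median of 0.02 over all genes tested. Values did not overlap between the ages in 891 of 891 and in 1013 of 1015 of these genes. That held for 59.8% of all genes tested. Genes could pass the minimum level through 1 age alone and then had to differ in that direction, and 22.6% of the genes called higher had a mean under 7 at 4 months and 49.8% of those called lower had one at 12 months. Without 12-month replicate 1, 2 or 3 the calls were 452, 432 or 413 higher and 550, 541 or 516 lower. These libraries are nearly identical, so leaving 1 out hardly moves their mean and mainly widens the standard errors. Lower RNA of a gene per cell and fewer cells that hold it cannot be told apart in these libraries of pooled cells.

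Of the 10 leading genes that rose, Sparcl1, which encodes a matricellular protein secreted by astrocytes, measured 8.25, 8.28, 8.27, 7.78 and 8.07 in the 5 libraries at 4 months and 10.33, 10.31 and 10.23 at 12 months. The difference was 2.16 ± 0.27 (SE; adjusted p = 9.59e-06, and 0.0125 with the 12-month libraries counted as 1). The leading genes were chosen among genes without overlap, so every 12-month library stood above every 4-month library by that choice. Repin1, which encodes a zinc finger protein, rose from between 6.84 and 7.96 to between 9.83 and 9.93, a difference of 2.32 ± 0.29 (adjusted p = 1.05e-05, and 0.0125 counted as 1). Rlbp1, a retinaldehyde-binding protein of glia, rose by 2.08 ± 0.28 from a mean of 6.57, and Btbd17 by 2.05 ± 0.31 from 7.08.

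Cdk3-ps, Rlbp1, Unc5cl, Adamts14 and Cd4 passed the minimum level through 12 months alone. Cd4, which encodes the T cell coreceptor that myeloid cells can also carry, measured 6.54, 6.56, 6.41, 6.55 and 6.42 at 4 months and 8.17, 8.13 and 8.08 at 12 months, a difference of 1.63 ± 0.24 (adjusted p = 5.78e-05, and 0.0313 counted as 1). The T cell genes Cd3e and Cd8a did not reach the minimum level at either age. The pseudogene Cdk3-ps went from between 6.21 and 6.26 to 8.07 in all 3 libraries, and the protease gene Adamts14 from between 6.16 and 6.37 to between 7.53 and 7.57. Unc5cl rose by 1.81 ± 0.25, Ntm, a neural cell adhesion molecule, by 1.64 ± 0.21, and Cspg5, a neural chondroitin sulfate proteoglycan, by 1.69 ± 0.24. All 10 of these leading genes kept their call with the 12-month libraries counted as 1 sample. They were chosen for the lowest p-values, which that count hardly reorders, so this is no further support for them.

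The lowest p-value was that of Slc16a3, which encodes the lactate exporter MCT4 (chromosome 11, 120948480 to 120960868, GRCm38). Its level was 8.26, 8.29, 8.46, 7.85 and 8.33 at 4 months and 5.14, 5.17 and 5.25 at 12 months, at the very bottom of the scale. The difference was -3.05 ± 0.29 (adjusted p = 1.67e-07, and 0.000893 counted as 1). Dxo, Thumpd1, Prdx3, B4gat1 and Tdrd7, like Slc16a3, passed the minimum level through 4 months alone. Ndufa8, a subunit of respiratory complex I, measured 9.47 to 9.79 at 4 months and 7.30, 7.30 and 7.31 at 12 months (difference -2.28 ± 0.27). Prdx3, the mitochondrial peroxiredoxin, measured 9.32, 9.29, 9.34, 8.49 and 9.46 and then 6.65, 6.62 and 6.53 (difference -2.58 ± 0.31). The values of both genes did not overlap between the ages, which the choice of the leading genes required.

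Pld3 (chromosome 7, 27532000 to 27553218), which encodes a lysosomal nuclease, fell from 10.91, 10.91, 10.58, 10.76 and 11.04 to 8.98, 8.96 and 8.93, a difference of -1.88 ± 0.23 (adjusted p = 9.59e-06, and 0.0125 counted as 1). Tecpr1, which links autophagosomes to lysosomes, fell by 1.86 on the log2 scale, from between 8.95 and 9.69 to between 7.43 and 7.49. B4gat1, a glycosyltransferase, had a difference of -2.59 and Dxo, which removes incomplete RNA caps, of -2.41. Tdrd7, Thumpd1 and Rbm7, which encode proteins that bind or process RNA, had differences of -2.11, -2.10 and -1.89. The 10 leading genes that fell also kept their call with the 12-month libraries counted as 1, which their choice by the lowest p-values favoured.

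**Figure D2:**
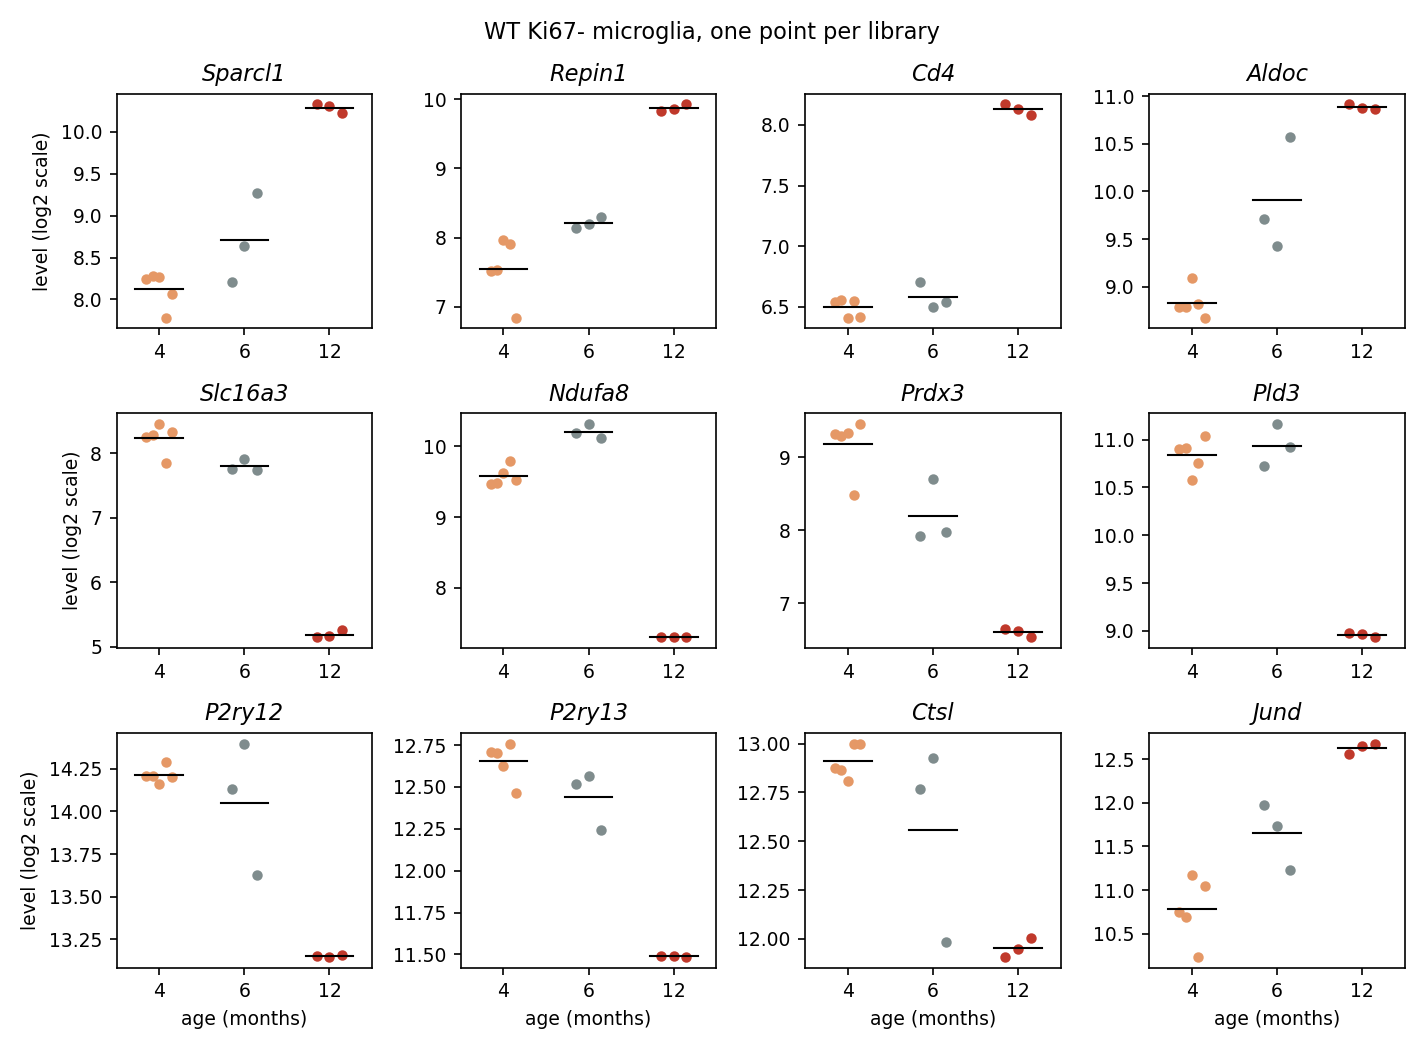
Each point is a WT Ki67- library and each black bar the mean of its age group, at 4 (n = 5), 6 (n = 3) and 12 (n = 3) months, on the authors' log2 scale. The vertical axes differ between genes and do not start at 0. The 3 libraries at 12 months lie almost on top of each other in every panel, and at 6 months Pld3 and P2ry12 lie nearer to the 4-month level.

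The 38 genes called with the 12-month libraries counted as 1 sample had absolute differences of 1.32 and more, with a median of 2.04. Those beyond the 20 leading genes were named after their values were seen. They included Tmem129, which encodes a ubiquitin ligase of the endoplasmic reticulum (difference -2.15), Fkbp9, a prolyl isomerase of the same compartment (-2.56), Hif1an, which encodes the asparagine hydroxylase FIH that restrains hypoxia-inducible factor (-2.60), Wars, a tryptophanyl-tRNA synthetase (-2.37), and Nelfb, a subunit of the negative elongation factor (-2.41). Rnf20, which encodes a histone H2B ubiquitin ligase (-2.09), Stim2, a calcium sensor of the endoplasmic reticulum (-1.84), and Cops3, a COP9 signalosome subunit (-1.73), fell as well.

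P2ry12 and P2ry13, which encode purinergic receptors of homeostatic microglia, were lower at 12 months. P2ry12, the purinergic receptor that guides process movement, measured 14.21, 14.21, 14.16, 14.29 and 14.21 at 4 months and 13.15, 13.14 and 13.16 at 12 months, a difference of -1.07 ± 0.24 (adjusted p = 0.00371, and 0.186 counted as 1). Its neighbour P2ry13 measured 12.71, 12.70, 12.63, 12.76 and 12.46 and then 11.49, 11.49 and 11.48 (difference -1.16 ± 0.21, adjusted p = 0.000557, and 0.0972 counted as 1). Both genes were lower in every 12-month library, like 1013 of the 1015 genes called lower. Of the 29 homeostatic genes tested, 4 were lower, against 8.38% of all genes, with the fractalkine receptor gene Cx3cr1 (-0.67) and Tmem173, which encodes STING (-0.79), as the other two, and 1 was higher. That gene was Sall1, the transcription factor that maintains microglial identity, with a difference of 0.72 ± 0.23 (adjusted p = 0.0317, and 0.372 counted as 1). The list had a median of -0.34, and 19 of its 29 members had a negative sign. With the 12-month libraries counted as 1 sample, 0 of them were called.

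The fall of both purinergic receptors was also seen in separate libraries. In WT Ki67+ microglia, where 17 genes were higher (0.14%) and 35 lower (0.289%) at 12 than at 4 months, P2ry12 differed by -0.99 (adjusted p = 0.0366) and P2ry13 by -1.11 (adjusted p = 0.00718). In APP/PS1 Ki67- microglia the differences were -0.72 (adjusted p = 0.0741) and -0.60 (adjusted p = 0.0858). Neither comparison shares a library with WT Ki67- microglia, but the labels do not tie Ki67+ and Ki67- libraries to animals. The difference between the genotypes in the change of P2ry12 was 0.35 and did not pass the test (adjusted p = 0.573).

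Of the disease-associated microglia genes, which rise around amyloid, 1 of 27 was higher and 2 were lower. Over all genes tested 7.36% were higher and 8.38% lower. The median of the list was -0.19. Lgals3, which encodes galectin-3, ranged from 7.23 to 9.35 at 4 months and from 9.64 to 9.84 at 12 months (difference 1.30 ± 0.43, adjusted p = 0.0398). Ank, a pyrophosphate transporter, was lower by -1.35 ± 0.38 and Ctsl, which encodes cathepsin L, by -0.96 ± 0.28. The mean level of Ctsl was 12.91 in the younger and 11.95 in the older group. Its values did not overlap, like those of 59.8% of all genes tested. The 3 calls were lost with the 12-month libraries counted as 1 sample (adjusted p = 0.295 to 0.395). Spp1, Gpnmb and Igf1 did not reach the minimum level at either age.

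The same list moved otherwise in APP/PS1 Ki67- microglia, where 347 genes were higher (2.86%) and 212 lower (1.75%) at 12 than at 4 months. There 25 of the 27 genes were higher and 0 were lower, with a median of 1.64. The test of the difference between the genotypes was passed by 21 of the 27 genes, against 7.74% of all genes tested, and by 12 of them with the WT 12-month libraries counted as 1. Ank differed by 4.05 (adjusted p = 3.37e-05) and Ctsl by 2.57 (adjusted p = 0.000185) between the genotypes, and both were higher with age in APP/PS1 mice and lower in WT mice.

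**Figure D3:**
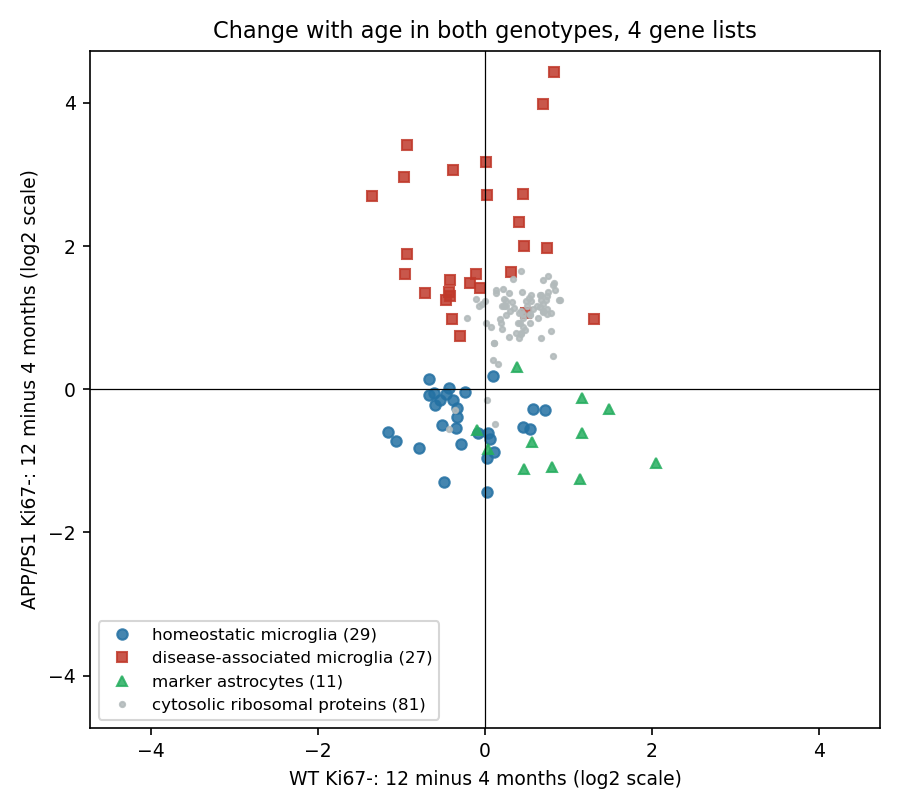
Each point is a gene of 1 of 4 lists, placed by its difference between 12 and 4 months in WT (horizontal) and in APP/PS1 (vertical) Ki67- microglia, both on the log2 scale. The disease-associated genes lie high on the vertical axis (median 1.64) and around 0 on the horizontal axis (median -0.19), and 10 of the 11 astrocyte markers lie right of 0 and most lie below it.

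Of 59 lysosomal genes tested, 9 were lower and 1 was higher, with a median of -0.22 against 0.02 over all genes and a negative sign in 37. Over all genes 8.38% were lower and 7.36% higher. The genes that fell encode the peptidases Ctsc (-0.87), Ctsl (-0.96) and Tpp1 (-0.87), the sugar hydrolase Naglu (-0.98), the membrane proteins Lamp1 (-0.67) and Laptm4a (-0.75), and 3 subunits of the proton pump that acidifies the lysosome, Atp6v1b2 (-1.11), Atp6v1c1 (-0.88) and Atp6v1h (-1.17). Tpp1 measured 11.52, 11.50, 11.46, 11.37 and 11.54 at 4 months and 10.61, 10.62 and 10.61 at 12 months (difference -0.87 ± 0.23, adjusted p = 0.0101, and 0.257 counted as 1). Npc1, which exports cholesterol from the lysosome, was the gene that rose (difference 0.71 ± 0.23, adjusted p = 0.0364). At 6 months Tpp1 stood at 10.58 to 11.18. In APP/PS1 Ki67- microglia 10 of the 59 genes were higher, against 2.86% of all genes, and 0 were lower. The genotypes differed in the change of 16 genes, against 7.74% of all genes, or of 5 with the 12-month libraries counted as 1. No lysosomal gene of the list was called in WT mice under that count.

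Inflammatory mediators were called lower in 5 of 38, against 8.38% of all genes, and higher in 1. The 5 were the chemokine genes Ccl2 (-1.76 ± 0.37), Ccl9 (-1.17 ± 0.29), Ccl12 (-0.93) and Cxcl1 (-1.01), and Relb (-1.12), a subunit of NF-κB. Ccl2, which attracts monocytes, measured 9.51, 9.60, 9.88, 9.32 and 9.69 at 4 months and 7.84, 7.86 and 7.81 at 12 months (adjusted p = 0.00232, and 0.163 counted as 1). Like 1013 of the 1015 genes called lower, it was lower in every library at 12 months. Tnfaip3, which encodes A20, the brake on NF-κB, rose by 0.85 ± 0.27 (adjusted p = 0.0336). In the complement and Fc receptor list 1 of 21 genes was called, as higher, against 7.36% of all genes. Cfb, which encodes complement factor B, measured 6.26 to 6.71 at 4 months and had a mean of 8.01 at 12 months, a level through which alone it passed the minimum (difference 1.54 ± 0.27, adjusted p = 0.000436, and 0.0882 counted as 1). Of 32 antigen presentation genes, Cd40, a costimulatory receptor, rose by 0.77 and H2-DMb1, a chaperone of MHC class II loading, was lower by -0.85. None of the calls in these 3 lists was kept with the 12-month libraries counted as 1 sample.

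Interferon-stimulated genes did not move as a block. Of 38 tested, 3 were higher and 5 lower, against 7.36% and 8.38% of all genes. Relatives within a family took opposite directions. Oasl1 measured 6.79, 6.74, 7.13, 6.38 and 6.73 at 4 months and 8.60, 8.59 and 8.52 at 12 months (difference 1.81 ± 0.33, adjusted p = 0.000625, and 0.0999 counted as 1). Its neighbour Oasl2 measured 7.71, 7.64, 7.74, 6.96 and 7.98 and then 6.16, 6.16 and 6.02 (difference -1.49 ± 0.36, adjusted p = 0.00633). The values of neither gene overlapped between the ages, as in 59.8% of all genes tested. Mx2 was higher (1.38 ± 0.34) while Mx1 was lower (-1.50). Both belong to the family of dynamin-like antiviral GTPases, but the gene annotation lists Mx2 as a polymorphic pseudogene. Close relatives can share reads, and how reads were split between them is not known here. Usp18, which dampens the type I interferon receptor, had a difference of -1.91 ± 0.39, Oas2 of -1.45 and Trim25, an E3 ligase of the RIG-I pathway, of -1.04, while Ifi35 rose by 0.89. With the 12-month libraries counted as 1 sample, 0 of the 8 calls remained.

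Several lists held calls in both directions, and over all genes tested 7.36% were called higher and 8.38% lower. Among 18 circadian clock genes, Nr1d1, which encodes the repressor REV-ERBα, rose from between 8.24 and 9.04 to between 9.96 and 10.01 (difference 1.41 ± 0.29, adjusted p = 0.00187, and 0.149 counted as 1). Per1 rose by 1.36 ± 0.37, whereas Per3 was lower by -0.96 ± 0.31 and Cry2 by -1.12 ± 0.33. Per1, Per3 and Cry2 all encode repressor components of the clock. The hour at which the brains were taken is not given in the sources used here. The change of Nr1d1 differed between the genotypes by -2.34 (adjusted p = 0.000881). Clock activators bind the E-box CACGTG, and the window around a start of Per1 is shown because it holds this motif, whose first base is at -166 from that start. The window of the other listed start of Per1 and those of Nr1d1, Per3 and Cry2 did not hold these letters. The window of 300 bases lies at chr11:69098699-69098998 on the plus strand of GRCm38.p6, is from RefSeq, and has the motif in capitals.
Per1: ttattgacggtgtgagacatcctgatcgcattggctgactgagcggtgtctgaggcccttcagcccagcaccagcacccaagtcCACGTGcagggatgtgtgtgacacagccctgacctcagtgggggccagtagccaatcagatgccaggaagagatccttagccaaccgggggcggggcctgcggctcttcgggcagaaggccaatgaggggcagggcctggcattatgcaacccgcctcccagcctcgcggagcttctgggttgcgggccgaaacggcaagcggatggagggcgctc

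CACGTG, which reads the same on both strands, was present in the windows of 10.3% of the genes called higher, 11.7% of those called lower and 11.6% of all genes tested that had a window (696, 802 and 9522 genes). The interferon response motif, written as GAAA, any 2 bases and GAAA and searched on both strands, was present in 4.45%, 3.12% and 3.95%. It was present in 14 of the 28 interferon-stimulated genes with a window, but not in the windows of Oasl1, Oasl2, Ifi35 and Trim25, the called members that had one. The median GC content of the windows was 61.3% for the genes called higher, 60.6% for those called lower and 60.3% for all genes tested. The median gene length in GENCODE M21 was 23120, 24684 and 23950.5 bases, and the median of the longest transcripts 3366, 3394.5 and 3435.5 bases. These shares are descriptions of the windows.

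In the sterol list 5 of 24 genes rose and 4 fell, against 7.36% higher and 8.38% lower over all genes tested. The same shares apply to the lipid and TGF-β lists. Pmvk, Mvd and Sqle, which act from mevalonate to squalene epoxide, rose by 1.09, 1.15 and 1.02, together with Ebp (1.11) and Insig1 (1.02), which retains the sterol sensor in the endoplasmic reticulum. Acat2, Nsdhl, Sc5d and Dhcr7, of which the last completes cholesterol synthesis, had differences of -1.23, -1.38, -1.20 and -1.31. Among 25 lipid handling genes, the acyl-CoA synthetase gene Acsl1 (1.10) and Soat1 (0.82), which stores cholesterol as esters, rose, and Acsl5 (-1.26) and Acaca (-0.81), which encodes acetyl-CoA carboxylase, fell. Among 27 genes of TGF-β signalling, a pathway that sustains microglial identity, Tgfb2 (1.01), the activating integrin gene Itgb8 (1.24) and the inhibitor gene Smad6 (0.78) rose, and Smad2 (-1.02) fell. None of these genes was called with the 12-month libraries counted as 1 sample (adjusted p = 0.158 to 0.42).

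Immediate early genes respond to stimuli, including cell isolation. Of 35 such and heat shock genes tested, Jund rose from 10.74, 10.69, 11.18, 10.23 and 11.05 to 12.55, 12.65 and 12.68 (difference 1.85 ± 0.37, adjusted p = 0.00167, and 0.143 counted as 1). Nr4a1, a nuclear receptor induced early after stimulation, fell from 11.17, 11.12, 10.86, 10.77 and 11.48 to 9.70, 9.68 and 9.63 (difference -1.41 ± 0.28, adjusted p = 0.00135, and 0.133 counted as 1). Fosl2 (-1.40) and Rgs1 (-0.72) were also lower, and the median of the list was 0.02. The calls in this list were 1 of 35 higher and 3 lower, against 7.36% and 8.38% of all genes tested. These calls were lost with the 12-month libraries counted as 1 sample. Nr4a1 was lower at 12 months in WT Ki67+ microglia as well, by -1.44 (adjusted p = 0.00718).

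Cell cycle genes gave 2 higher and 3 lower calls of 27 tested, against 7.36% and 8.38% of all genes. The same shares apply to the lists that follow it. Of the 38 cell cycle genes listed 11, such as Plk1, Aurkb and Cdc20, did not reach the minimum level. Mcm3, a subunit of the replicative helicase, measured 8.11 to 8.49 at 4 months and 6.74 to 6.78 at 12 months (difference -1.52 ± 0.31). Mcm5 (-1.20) and the cyclin gene Ccnd2 (-1.09) were lower, and Ccnb1 (1.21) and Cdk6 (0.94) higher. Of 21 genes of senescence and cell cycle arrest, Cdkn1b, which encodes the inhibitor p27, rose by 0.74, E2f4 by 0.92 and Sirt1 by 0.71, and Cdkn1c, which encodes p57, was lower by -0.98. Cdkn2a, which encodes p16, and Cdkn2b did not reach the minimum level. In the unfolded protein response list 1 of 23 genes, the chaperone gene Hsp90b1, was lower (-0.64). Among 22 genes of growth factors and lineage, Sall1 was the gene called. All of these calls were lost with the 12-month libraries counted as 1 sample.

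Of 81 cytosolic ribosomal protein genes, 74 had a positive sign and the median was 0.44, but 5 passed the test. Among these 5, all higher, were Rps14 (0.73) and Rps27l (0.81). Over all genes tested 7.36% were higher and 8.38% lower, and these shares also apply to the lists that follow. In APP/PS1 Ki67- microglia 64 of the 81 genes were higher, against 2.86% of all genes, and the median was 1.12. Of 38 proteasome subunits, 4 were higher, by p-value led by Psmd2 (1.24) and Psmb6 (0.97), and Psmd5, a chaperone of proteasome assembly, was lower (-1.30). Among 78 mitochondrial ribosomal proteins 5 were higher and 3 lower, and the lowest p-values per direction were those of Mrpl30 (1.26), Mrps33 (1.06), Mrps9 (-1.39) and Mrpl35 (-1.12). Among 75 nuclear genes of oxidative phosphorylation 3 were higher and 3 lower. Uqcrc2, of complex III, was lower by -1.15 and Cox5a (0.70) and Atp5j2 (0.68) were higher, beside the fall of Ndufa8. Of 32 splicing factors, Srsf10 (-1.35) and Hnrnpdl (-0.85) were lower and Tra2b (0.72) was higher. Apart from Ndufa8, none of these was called with the 12-month libraries counted as 1 sample.

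Of 66 canonical histone genes 24 reached the minimum level. Of these 24, 6 were higher and 0 lower, against 7.36% and 8.38% of all genes, and the median was 0.57. Members that passed this filter through a high level at 12 months had to differ upward, so the count is a description. Hist2h2aa2 measured 7.03 to 7.28 at 4 months and 9.69, 9.69 and 9.54 at 12 months (difference 2.48 ± 0.50, adjusted p = 0.00152, and 0.139 counted as 1). Hist1h3c measured 6.05 to 6.42 and then 7.48 to 7.57 (difference 1.36 ± 0.22). Most histone mRNAs lack a poly(A) tail, and copies of histone genes share sequence, so their values are uncertain. No gene of the mitochondrial genome was in the table.

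**Figure D4:**
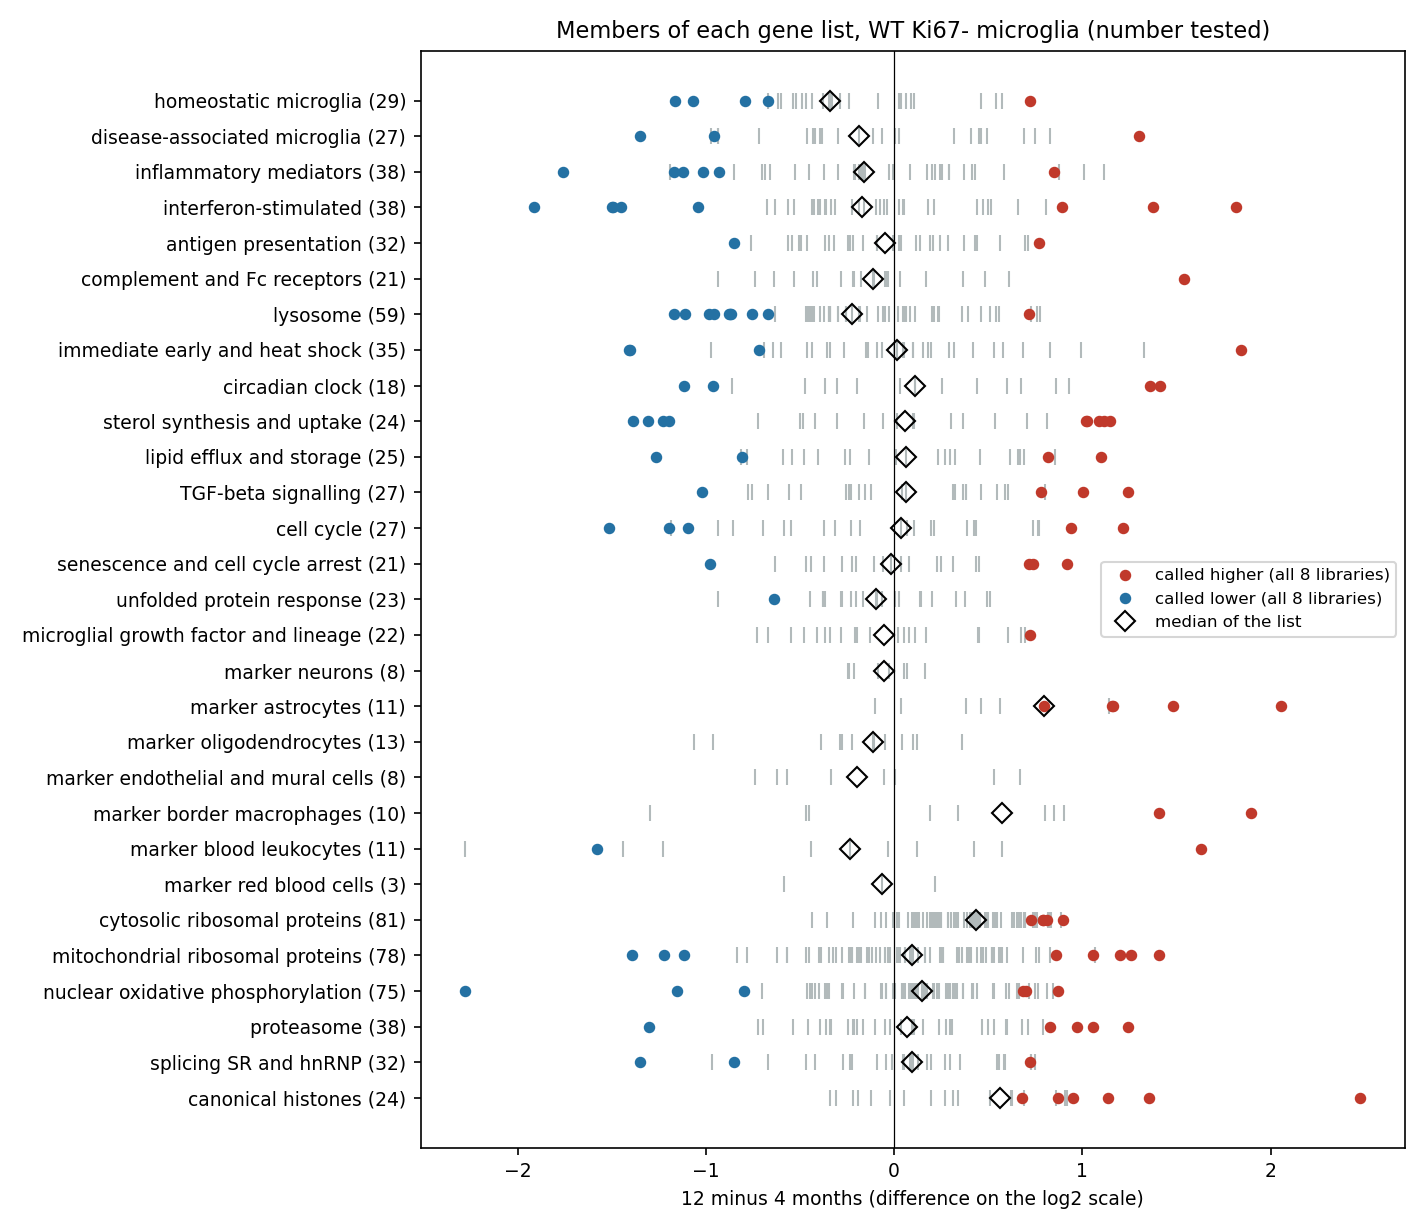
Each row is a gene list with its number of tested genes, each mark a gene at its difference between 12 and 4 months on the log2 scale. Dots are genes called at an FDR of 0.05 with 3 against 5 libraries (red higher, blue lower), grey ticks are genes not called and diamonds are list medians. Medians lie between -0.34 (homeostatic microglia) and 0.80 (astrocyte markers).

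Markers of other cell types moved with age in part. Of 11 astrocyte markers tested 5 were higher and 0 lower, against 7.36% and 8.38% of all genes, and the median was 0.80. Aldoc, an aldolase of astrocytes, measured 8.78, 8.78, 9.09, 8.82 and 8.67 in the 4-month libraries, 9.71, 9.43 and 10.57 in the 6-month and 10.91, 10.88 and 10.86 in the 12-month libraries (12-month minus 4-month difference 2.05 ± 0.36, adjusted p = 0.000467, and 0.0907 counted as 1). Clu (1.48), Gja1 (1.16), Sox9 (1.16) and Glul (0.80) were the other genes called, and 0 of the 5 calls were kept with the 12-month libraries counted as 1. The average level of the list ran from 8.49 to 8.85 in the 4-month, 8.65 to 9.38 in the 6-month and 9.52 to 9.64 in the 12-month libraries. Gfap did not reach the minimum level, with means of 6.35 and 6.39. Sparcl1, Cspg5, Ntm and Rlbp1, which were among the 10 leading genes that rose, are genes that astrocytes are known to express. In WT libraries at 4 months their Ki67+ means were 12.59, 9.72, 9.14 and 7.73, above the Ki67- means of 8.13, 7.97, 7.19 and 6.57. At 12 months the Ki67+ means were 12.75, 10.17, 9.05 and 8.53 and the Ki67- means 10.29, 9.66, 8.83 and 8.66. The part of astrocyte RNA in the rise of these genes was not tested. In APP/PS1 Ki67- microglia the median of the same list was -0.74, and Aldoc differed between the genotypes by -3.08 (adjusted p = 0.000418, limma).

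Border macrophage markers gave 2 higher calls of 10 tested, against 7.36% of all genes, namely Cbr2 (1.90 ± 0.47) and Cd163 (1.41 ± 0.36). The average level of the list was 7.83 to 8.80 at 4 months and 8.71 to 8.74 at 12 months. Both calls were lost with the 12-month libraries counted as 1 (adjusted p = 0.235 and 0.247). Ms4a7 (difference -1.30, adjusted p = 0.063) and Mrc1, with means of 8.03 and 7.56, were not called. Among 11 leukocyte markers, Cd4 was higher and Ly6c2, a monocyte antigen, was lower (-1.58 ± 0.54, adjusted p = 0.0433, limma). The Ly6c2 call was lost with the 12-month libraries counted as 1. Ngp, with means of 11.41 and 9.13, and Camp, with 10.42 and 8.98, were not called. S100a8, with means of 12.25 and 12.22, and S100a9, with 11.33 and 11.09, stood at or above percentile 98 of the genes of the table at both ages. The average of that list ranged from 8.18 to 9.86 at 4 months and from 8.67 to 8.76 at 12 months. Their part in the other differences was not tested. Of 8 neuronal, 13 oligodendrocyte, 8 endothelial and mural, and 3 red blood cell markers, 0 were called in either direction with 3 libraries or with these counted as 1. Oligodendrocyte markers averaged 8.41 to 8.98 in the 4-month, 8.89 to 10.99 in the 6-month and 8.47 to 8.53 in the 12-month libraries. Among the most abundant markers of these lists, Mbp had a difference of -1.06 (adjusted p = 0.13), Cnp of 0.10 (adjusted p = 0.897), Elavl4 of -0.25 (adjusted p = 0.656), Map1b of 0.07 (adjusted p = 0.925), Bsg of 0.00 (adjusted p = 0.994), Pecam1 of -0.05 (adjusted p = 0.915), Hba-a1 of -0.06 (adjusted p = 0.943) and Hba-a2 of 0.22 (adjusted p = 0.839).

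At 6 months the called genes mostly stood nearer to their 4-month than to their 12-month level. Their choice for a 12-month level that stands apart favours this, and the share over all genes tested was not computed. The mean at 6 months was nearer to 4 than to 12 months for 746 of the 891 genes called higher (83.7%) and for 854 of the 1015 called lower (84.1%). In order of age, the median level of the genes called higher was 7.77, 7.90 and 8.92, and that of the genes called lower was 8.27, 8.12 and 7.00. In the other 9 groups these medians were 7.84 to 8.01 and 8.11 to 8.27. WT Ki67- microglia at 12 months had the highest mean of all 12 groups for 632 of the genes called higher (70.9%, against 18.4% of all genes tested) and the lowest for 726 of those called lower (71.5%, against 15.1%). The calls rest on this group, so the shares are a description.

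**Figure D5:**
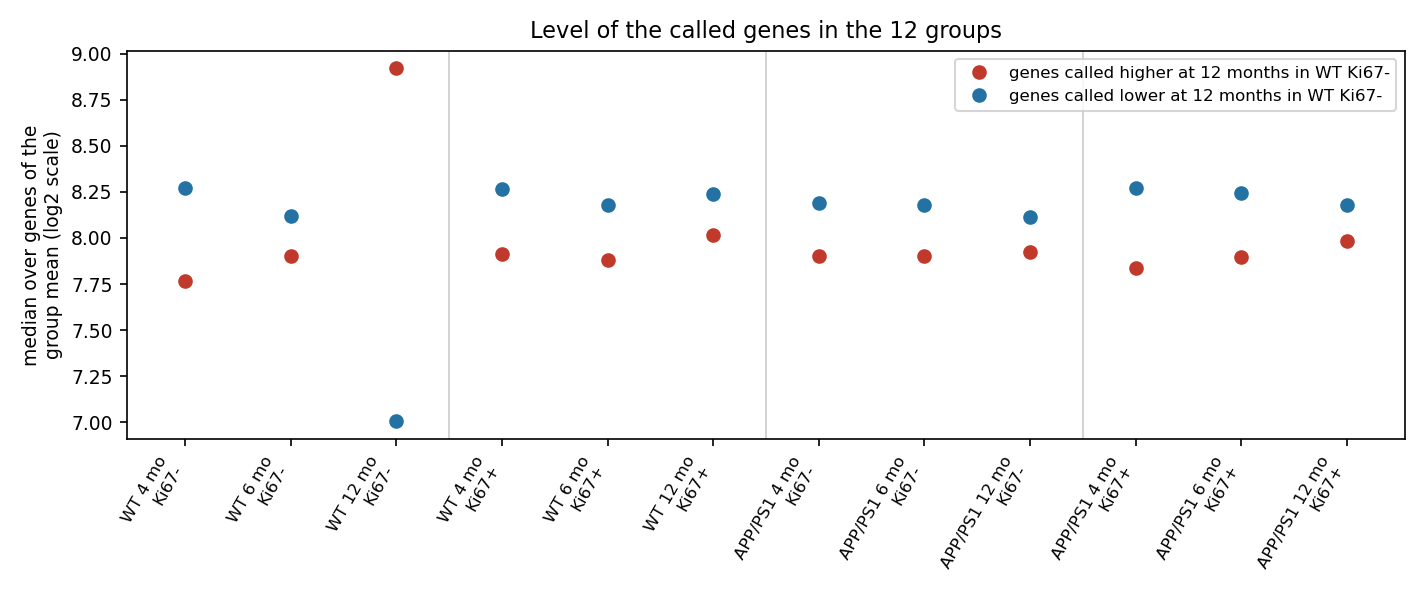
For each of the 12 groups the points give the median, over the genes called higher (red) or lower (blue) at 12 against 4 months in WT Ki67- microglia, of the group mean on the log2 scale. The axis does not start at 0. The 12-month WT Ki67- group stands at 8.92 and 7.00, apart from all other groups.

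The other cells of the series gave a similar change for few of these genes. In WT Ki67+ microglia, 56.8% of the genes called higher had a positive difference with age, against 48.0% of all genes tested, and 56.7% of those called lower had a negative one, against 52.0%. In APP/PS1 Ki67- microglia the shares were 51.3% against 46.9% and 58.6% against 53.1%. The median difference of the genes called higher was 0.08 in WT Ki67+ and 0.02 in APP/PS1 Ki67- microglia, and that of the genes called lower -0.05 and -0.09. In the test of the difference itself, 492 genes of Ki67- microglia had a more positive (4.06%) and 446 a more negative (3.68%) change with age under APP/PS1 than under the WT genotype. Within WT mice, 314 genes (2.59%) had a more positive and 262 (2.16%) a more negative change in the Ki67+ cells. Counting the 12-month WT Ki67- libraries as 1 sample left 82 and 8 genes in all.

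A set of 8 genes was called in the same direction in WT Ki67+ microglia, 3 of the 891 higher and 5 of the 1015 lower. Over all genes tested 0.14% were called higher and 0.289% lower there. From each direction 1 gene was called the opposite way. The higher genes were Adgrb1, which encodes a receptor for apoptotic cells (0.66 in Ki67- and 1.30 in Ki67+ cells), Kirrel2 (1.20 and 1.15) and Paqr6 (1.18 and 1.22). The lower genes were P2ry12, P2ry13, Nr4a1, Tmem129 (-2.15 and -1.38) and Tppp, which encodes a tubulin-binding protein (-1.55 and -1.22). In APP/PS1 Ki67- microglia 24 genes were also called higher and 31 also called lower, whereas 15 and 21 were called the opposite way. Over all genes tested 2.86% were called higher and 1.75% lower there, so the 24 of 891 genes called higher in both are a share near that of all genes. Among those that rose in both genotypes were Aplp2, of the amyloid precursor protein family (1.22 in WT and 2.30 in APP/PS1), Anxa5 (1.06 and 1.63), Lars2 (1.99 and 1.66) and the interferon-stimulated gene Oas1g (1.06 and 2.01), and among those that fell were Tmem173 (-0.79 and -0.81) and Hes1, a Notch target (-1.19 and -1.12). Tmem129 and Tppp were lower in all 3 comparisons. Tmem129, which differed by -1.23 in APP/PS1 mice, kept its call with the 12-month libraries counted as 1 (adjusted p = 0.0149). These genes were named after their values were seen.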

How the data were processed

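RNA from sorted, fixed microglia was sequenced from 42 libraries. Per the labels and the study's methods, the authors quantified reads of 75 bases with kallisto 0.43.1 after bcl2fastq 2.20, normalized them with DESeq2 and removed 10 surrogate variables. What they deposited is a log2-like score, not a count. Removing surrogate variables shrinks the spread within groups, so p-values that ignore it can be too small. What the removal did to the group means cannot be told from the deposited values and was not tested. The removal left 20 of the 30 directions of deviation from the group means.

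All 42 libraries were fitted with limma 3.58.1 in R 4.3.3 as 12 group means with 20 residual degrees of freedom, with Benjamini-Hochberg adjustment across the 12112 genes at an FDR of 0.05. An error after ± is the standard error of a difference. Groups came from the labels, and 0 columns were left unassigned. The fit was tested on simulated data that gave a gene the same spread in every group. The simulation did not repeat the removal of surrogate variables, so it cannot show what that removal did to group means. The plan assumed log2 values, which the table holds. Counting the near-identical 12-month libraries as 1 sample was added after seeing the data.

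Named genes are Mki67, the 10 with the lowest p per direction among called genes with an absolute difference of at least 1 and no overlap (leaving out clone names), and up to 2 called genes per direction in each list, or the 2 most abundant where none was called. Other list members were named after their values were seen. The comparison and the lists were chosen with earlier results of these data known. Positions are from GENCODE M21 on GRCm38, where 11962 of the tested symbols matched, and promoter windows from RefSeq. Python 3.11.15 made tables and figures. Some items are not reported here.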

Additional observations from a re-analysis of the deposited data

Results flagged for a closer look

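In 10 of 96 named genes 1 library at 4 months stood far from the other 4 by Dixon's criterion, which chance meets in about 1 of 20 groups. The low values were those of Prdx3 (8.49), Tdrd7 (8.29), Usp18 (7.41), Dhcr7 (8.04), Elavl4 (7.60) and Bsg (11.99). The high values were those of Sc5d (8.32), Ly6c2 (8.84), Uqcrc2 (10.72) and Hist1h3c (6.42).

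The change with age differed between the genotypes in 43 named genes, and between Ki67+ and Ki67- cells in 43, by limma's test of the difference with 3 libraries at 12 months (7.74% and 4.76% of all genes tested). Most named genes were chosen for their change in the same WT Ki67- libraries, which favours such a difference, so these counts are a description. With these counted as 1 sample, 18 and 7 passed, and their values follow. In Ki67- cells the change was more negative in APP/PS1 than in WT mice for Sparcl1 (-3.12), Aldoc (-3.08), Rlbp1 (-2.52), Nr1d1 (-2.34), Ntm (-2.14), Cspg5 (-1.91) and Unc5cl (-1.90). It was more positive for Ank (4.05), Slc16a3 (3.86), Pld3 (3.38), Acaca (2.93), Ndufa8 (2.59), Dxo (2.57), Ctsl (2.57), Prdx3 (2.54), B4gat1 (2.41), Tecpr1 (2.14) and Tdrd7 (2.11). In WT mice the change was more negative in Ki67+ than in Ki67- cells for Unc5cl (-2.21) and more positive for Slc16a3 (3.22), B4gat1 (3.08), Dxo (2.59), Thumpd1 (2.53), Tecpr1 (2.28) and Pld3 (2.11).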

How the results depend on the processing

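With the 3 near-identical 12-month libraries counted as 1 sample, 12 genes were called higher and 26 lower, with 53 more positive and 29 more negative changes in APP/PS1 mice and 6 and 2 in Ki67+ cells. With 4-month replicates 1 and 2 also merged, the counts were 10 and 22, 51 and 23, and 6 and 2. Of the 87 named genes that were called, 20 and 19 kept their call, and 30, 32 and 31 lost it without 12-month replicate 1, 2 or 3, which also moved 29, 30 and 32 of 58 list counts by over 1.5 times. Both counts as 1 sample moved 42 list counts, and the fits of 8 and 11 libraries moved 54 and 44. Leaving out each library in turn gave 413 to 850 higher and 516 to 959 lower genes, with the lowest counts without a 12-month library (452, 432 and 413 higher, and 550, 541 and 516 lower, without replicates 1, 2 and 3). For the genotype difference the ranges were 304 to 542 and 270 to 490, and for the Ki67 difference 127 to 329 and 97 to 288, with 160 and 173 more negative changes without 12-month Ki67+ replicates 1 and 2. Not counting the removed directions as spent gave 1753 and 1838 genes, 1239 and 1213 for the genotype and 1017 and 1064 for Ki67. Fitting the 8 compared libraries alone gave 3547 and 3335, and the 11 WT Ki67- libraries 2494 and 2464, and these fits also do not count the removed directions.

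The other filters, the trend and robust options and the subtraction of library medians kept the 6 counts of calls over all genes within 1.5 times. No named gene that was called changed its sign under any alternative. Small, uncalled differences reversed. Bsg was -0.0186 with library medians subtracted. Leaving out single libraries gave -0.0352 to 0.129 for Map1b, -0.0303 to 0.0204 for Bsg, -0.107 to 0.0021 for Pecam1 and -0.194 to 0.0144 for Hba-a1. Mki67 was called in the 2 smallest fits (adjusted p = 0.00314 and 0.00468), and Mbp without the removed directions counted and in the 8 libraries (adjusted p = 0.0457 and 0.0145). No paired analysis was possible because the labels give no replicate numbers. Depth is unknown, and the 3 libraries of 1 group limit the precision.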
